A study of Mus musculus with 12 samples.

Results

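The response to 30 min of phorbol 12-myristate 13-acetate (PMA) was measured by RNA-seq in a mouse cell line that expresses HP1γ, the heterochromatin protein encoded by Cbx3, which binds methylated histone H3. The comparison rests on 6 of the series' 12 libraries: 3 from PMA-treated cells, given 100 nM PMA in DMSO on nearly confluent cells, and 3 from untreated cells of the same line. The line derives from mouse embryonic fibroblasts (MEF), lost HP1γ by knockout and was then recomplemented to express it again, and the labels call it HPg. It is 1 line, so the spread is between cultures of that line, described by the submitters as biological triplicates. Whether untreated cells received DMSO is not stated in the labels. The other 6 libraries come from the knockout line, untreated or with the same PMA dose and time. They entered the same fit and serve here to show where the HPg response differs.

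PMA is a phorbol ester that mimics diacylglycerol and activates protein kinase C (PKC). In fibroblasts PKC feeds into the RAS-RAF-MEK-ERK cascade, and ERK phosphorylates ternary complex factors that sit with serum response factor on the promoters of immediate-early genes. These genes need no new protein synthesis, are transcribed within minutes, and encode transcription factors of the FOS, JUN, EGR and NR4A families together with phosphatases, mRNA-decay factors and inhibitors that later shut the cascade down.

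Total counts ranged from 114769449 to 159929347 in the 6 HPg libraries. HPg untreated library 2 stood apart with 17822 genes detected, against 19759 to 20347 in the other 5. The noncoding RNAs Rpph1, Rmrp and Rn7sk together took 9.695% to 16.203% of the counts. Cbx3 had 37.1, 37.4 and 41.5 CPM (counts put on a shared library total, adjusted by TMM factors) in untreated libraries 1, 2 and 3 and 43.1, 33.8 and 38.9 CPM in PMA libraries 1, 2 and 3. The knockout line had 35.5, 39.0 and 35 CPM of Cbx3 untreated and 33.3, 26.9 and 35.2 CPM with PMA, so the counts of this gene do not separate the lines and the second line is called knockout-labelled throughout. Of 10 fibroblast markers, 8 had at least 1 CPM in untreated HPg cells. The markers summed to 9200 to 14500 CPM of the library total in untreated and 8390 to 12000 CPM in PMA libraries. Col1a1, Vim and Col3a1 made up most of the sum, while Thy1 had 3 counts in the 6 libraries and Fap 0.177 CPM untreated. Myod1 and Myog of muscle, Cd3e of blood, Tubb3 and Olig2 of neural cells, Ibsp of bone, Cldn5 of endothelium and Cldn4 of epithelium were at 0 counts. Other markers of these cell types had counts. Cartilage and bone markers summed to 37.5 to 67.5 CPM untreated and 39.7 to 53.9 CPM with PMA, mostly Runx2 and Col2a1. Adipocyte markers summed to 27.7 to 60.7 CPM untreated and up to 62.7 CPM with PMA, mostly Pparg. Epithelial markers, mostly Cdh1, summed to 10.8 to 11.8 CPM untreated and 8.72 to 9.58 CPM with PMA, without overlap. Endothelial markers summed to 6.42 to 13.4 and 9.09 to 11.1 CPM, with Erg the highest. Neural markers summed to 199 to 344 CPM untreated and 216 to 293 CPM with PMA, mostly Map2, and muscle markers to 30.4 to 82.3 and 20.3 to 69.2 CPM, mostly Acta1. Blood and immune markers were low in both groups, at 2.51 to 3.10 CPM untreated and 3.62 to 5.58 CPM with PMA, without overlap, and their part in the results below was not tested. Cd68, a lysosomal protein of macrophages, was the member called, with 1.14, 1.17 and 1.42 CPM untreated and 1.97, 2.58 and 1.97 CPM with PMA, and leaving out untreated library 1 or 2 or PMA library 2 or 3 ended that call (adjusted p = 0.0813 to 0.112 by edgeR).

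Within 30 min the cells raised immediate-early transcription factors most: Egr3, Egr2, Egr4, Fos, Nr4a3, Nr4a1 and Egr1 rose by 5.6 to 8.67 on the log2 scale. Most tested members of the lists of MAPK feedback genes, mRNA-decay factors and inflammatory genes were also called higher. So were the EGF receptor ligand genes Hbegf, Ereg and Areg and the miR-221 and miR-222 genes. Among genes that averaged 1 CPM or more untreated, whose libraries did not overlap between groups and whose symbol is no predicted-gene name, the 15 largest decreases were by 1.19 to 1.73 on the log2 scale, and included Osr1, Osr2 and Atoh8, which encode transcription factors of mesenchymal development. Of 16630 genes tested, 1433 were called higher (8.62%) and 1029 lower (6.19%) at an adjusted p below 0.05, by edgeR's quasi-likelihood test with Benjamini-Hochberg adjustment and the replicate number as a block. In total 2462 genes were called (14.8%). In bulk RNA, more RNA per cell and more cells with that RNA cannot be told apart.

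Large changes were mostly increases. By at least 1 log2, 280 genes were called higher (1.68%) and 149 lower (0.896%), and by at least 2 log2, 100 were called higher and 36 lower. A log2 increase of at least 3 was reached by 43 called genes. The median log2 fold change was 0.52 among genes called higher and -0.52 among those called lower, against -0.01 over all genes tested. All 1433 genes called higher were higher with PMA in each of the 3 same-numbered pairs of libraries, and 1023 of the 1029 called lower were lower in each pair. The replicate number was the block of the fit that made the calls, so this agreement is no independent support for them. The 3 untreated and 3 PMA libraries did not overlap for 1228 of the genes called higher and 771 of those called lower, and for 3774 of all genes tested (22.7%). Upper-quartile scaling gave 1121 higher and 1732 lower genes and library totals alone 1001 and 1140, with the median of all genes at -0.08 and -0.05. Of the genes called under TMM, 989 higher (69.0%) and 952 lower (92.5%) were called under all 5 scalings. The total was 574 without the block, and 1124, 1064 and 1348 without untreated library 2, untreated library 3 or PMA library 3.

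**Figure D1:**
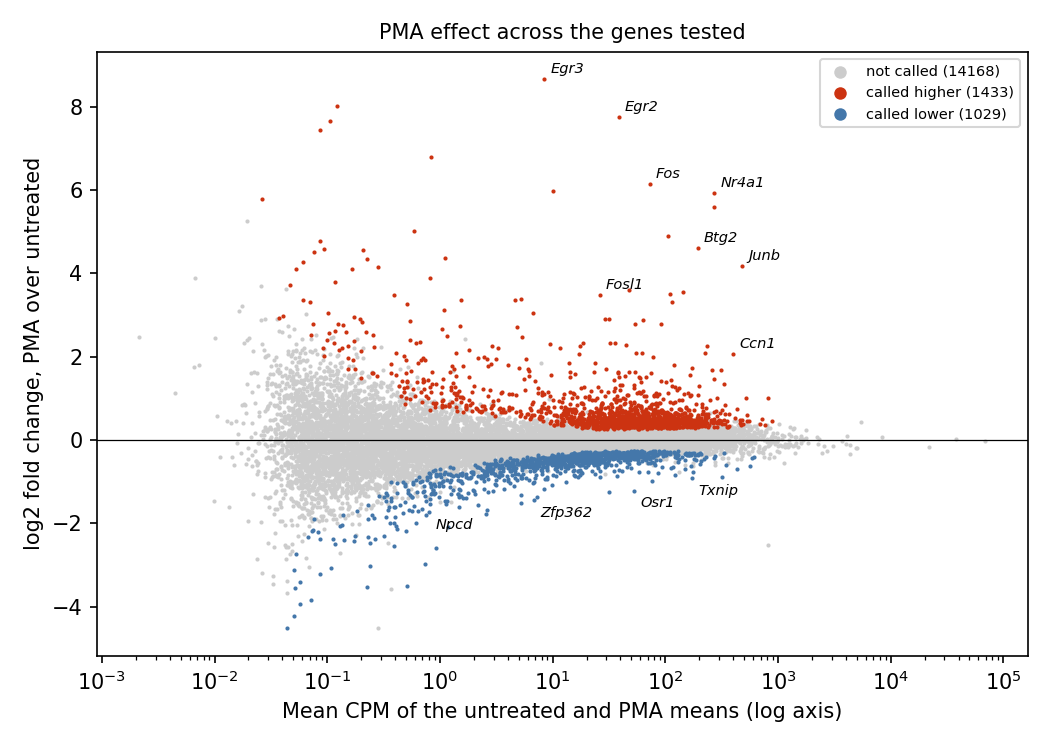
Each point is 1 of the 16630 genes tested, with the mean of its untreated and PMA levels in CPM on a log x axis and the log2 fold change of PMA over untreated on the y axis. Red points were called higher (1433), blue points lower (1029) and grey points were not called. Egr3, Egr2, Fos and Nr4a1 lie near the top, from 5.92 to 8.67, and Fosl1 lies lower at 3.47. Of the genes called lower, 36 reach 2 log2 or more below 0, against 100 of those called higher above it.

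Promoter sequences of 4 of the 15 genes with the largest named increases show the elements on which immediate-early control is best known: the serum response element, to which serum response factor binds, and the cyclic AMP response element (CRE, TGACGTCA), to which CREB and ATF proteins bind. Of the 15, 9 had a promoter window in the table used, and these 4 are the ones whose window holds one of the 2 elements. They are the 250 bases before the annotated start, 5′ to 3′ on the strand of the gene, from RefSeq on GRCm38.p6. Capitals mark the serum response element in Egr2 and Zfp36, the CRE in Btg2 and Errfi1, and also the TATA box letters TATAAA in Errfi1.
Egr2 (chr10:67537316-67537565, plus strand): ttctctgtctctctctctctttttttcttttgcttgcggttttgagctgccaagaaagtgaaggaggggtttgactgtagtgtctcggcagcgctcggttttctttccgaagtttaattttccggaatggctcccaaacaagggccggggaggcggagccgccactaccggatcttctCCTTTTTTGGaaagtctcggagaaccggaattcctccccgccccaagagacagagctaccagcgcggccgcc
Zfp36 (chr7:28379229-28379478, minus strand): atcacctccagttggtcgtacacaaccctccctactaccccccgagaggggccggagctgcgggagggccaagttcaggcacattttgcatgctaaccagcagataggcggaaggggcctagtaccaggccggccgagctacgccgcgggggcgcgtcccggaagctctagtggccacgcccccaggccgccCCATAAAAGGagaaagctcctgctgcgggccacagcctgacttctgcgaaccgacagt
Btg2 (chr1:134079156-134079405, minus strand): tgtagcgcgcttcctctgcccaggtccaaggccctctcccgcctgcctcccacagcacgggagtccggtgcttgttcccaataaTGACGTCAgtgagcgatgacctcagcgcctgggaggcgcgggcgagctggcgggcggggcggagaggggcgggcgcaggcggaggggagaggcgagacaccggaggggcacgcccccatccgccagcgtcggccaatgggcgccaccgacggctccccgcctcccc
Errfi1 (chr4:150854820-150855069, plus strand): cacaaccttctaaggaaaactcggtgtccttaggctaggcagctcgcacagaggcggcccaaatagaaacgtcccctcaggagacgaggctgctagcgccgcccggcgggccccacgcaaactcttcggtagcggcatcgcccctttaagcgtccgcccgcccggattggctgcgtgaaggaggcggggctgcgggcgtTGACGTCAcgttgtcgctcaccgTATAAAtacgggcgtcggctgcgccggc
The serum response element begins 72 bases before the start in Egr2 and 58 bases before it in Zfp36. The CRE begins 166 bases before the start in Btg2 and 51 in Errfi1, where the TATA letters follow 28 bases before the start. Egr2 has 5 promoter windows in the table, of which 4 hold the element, and the first of these is shown.

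The same letters were searched on both strands in windows from 250 bases before to 50 after each start, for the 11325 tested genes with a window. A serum response element was in 5 of 56 genes that were called higher by at least 2 log2 and had a window (8.93%), in 4.07% of those higher by at least 1 log2, in 1.69% of all tested genes and in 1.63% of all windows in the table. TATAAA was in 13 of those 56 (23.2%), in 19.8%, in 9.42% and in 13.6%. The CRE was in 4 of the 56 (7.14%), in 6.40%, in 3.34% and in 1.79%, and in 0 of 74 genes called lower by at least 1 log2. AP-1 letters (TGAGTCA or TGACTCA) were in 7.14% of the 56 and 4.87% of all tested, those of EGR proteins (GCGTGGGCG) in 1.79% and 1.4%, and those of NF-kB (GGGACTTTC or GGGAATTTC) in 3.57% and 0.689%. AP-1 letters were in 5.2% of all windows in the table, EGR letters in 0.612% and NF-kB letters in 0.612%. The motifs do not share letters over their whole length, but a TATAAA can lie inside a serum response element. These shares are a description of the windows, with no test.

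Immediate-early transcription factors were the list with the highest median, 1.54 on the log2 scale over 33 of 34 members tested. Of the 33, 27 were called higher and 0 lower, or 81.8% against 8.62% of all genes. The 3 untreated and 3 PMA libraries did not overlap in 26 of the 27, the exception being Ier5. Nor did they in 1228 of the 1433 genes called higher and in 22.7% of all genes. The member not tested was Npas4. Of the 27, 6 overlap an antisense gene in the annotation, and since the labels do not state the strand setting of the counting, their reads cannot be told from the partner's.

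EGR zinc-finger factors bind GC-rich promoter elements and are classical ERK targets. Egr3 had 0.0316, 0.0671 and 0.0228 CPM in untreated libraries 1, 2 and 3 and 13.1, 22.1 and 15 CPM in PMA libraries 1, 2 and 3, or 15 counts in all against 7344. Its log2 fold change of 8.67 (SE 0.291, adjusted p = 5.29e-10 by edgeR) was the highest of all genes tested. Every untreated library was close to 0 and every PMA library was high. Egr2 had 0.711, 0.126 and 0.228 CPM untreated and 57.9, 106 and 66.4 CPM with PMA, a log2 fold change of 7.75 (SE 0.535, adjusted p = 7.29e-05 by edgeR). Without untreated library 1, the one with the highest level among the untreated, that value was 8.80. Egr4 had 0, 0 and 5 counts untreated and 214, 390 and 134 with PMA, with a fitted log2 fold change of 6.80 (SE 0.686, adjusted p = 2.56e-05 by edgeR) that rests on few untreated counts and lay between 6.11 and 10.99 without 1 untreated library in turn. Egr1 had 20.04, 9.43 and 6.68 CPM untreated and 459, 662 and 455 CPM with PMA, a log2 fold change of 5.6 (SE 0.411, adjusted p = 3.18e-05 by edgeR). In each of the 4 genes the lowest PMA library stood far above the highest untreated one, and PMA library 2 was the highest.

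FOS and JUN proteins pair to form AP-1. Fos had 2.53, 2.42 and 1.34 CPM untreated and 131, 188 and 110.5 CPM with PMA, a log2 fold change of 6.14 (SE 0.288, adjusted p = 1.84e-07 by edgeR). Fosl1, which encodes the FOS relative FRA1, had 4.52, 3.88 and 4.58 CPM untreated and 48.2, 47.1 and 48.7 CPM with PMA, a log2 fold change of 3.47 (SE 0.098). Its libraries lay so close together within each group that its adjusted p of 9.61e-11 by edgeR was the smallest of the named genes. Fosb rose by 2.15, from 0.576, 0.595 and 0.706 CPM to 3.18, 4.0 and 1.72 CPM, and Fosl2 rose by 1.08 on the log2 scale. Junb had 58.2, 53.4 and 38.5 CPM untreated and 667, 1279 and 764 CPM with PMA, a log2 fold change of 4.17 (SE 0.242, adjusted p = 3.04e-07 by edgeR), and Prdx2 overlaps it on the other strand. Jun rose by 1.30 on the log2 scale, from 71.9, 73.8 and 53.8 CPM to 149, 190 and 152 CPM. Jund, the third member of the JUN family, had a log2 fold change of -0.21 with overlapping libraries and was not called. The AP-1 genes thus ranged from a rise of 6.14 log2 in Fos to no call in Jund.

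The NR4A orphan nuclear receptors are regulated mainly through their own transcription. Nr4a1 had 8.07, 11 and 6.57 CPM untreated and 400, 827 and 368 CPM with PMA, a log2 fold change of 5.92 (SE 0.205, adjusted p = 5.74e-10 by edgeR). Nr4a3 had 0.197, 0.369 and 0.342 CPM untreated and 15.6, 28.9 and 14.9 CPM with PMA, a log2 fold change of 5.99 (SE 0.221, adjusted p = 8.86e-10 by edgeR). Nr4a2 rose less, by 0.90 on the log2 scale (SE 0.177), from 4.45, 5.19 and 4.15 CPM to 11.5, 6.92 and 7.79 CPM.

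Among other factors of the list, Ier2 rose by 3.56, Hes1, a repressor in Notch signalling, by 2.90, Atf3 by 2.34, Bhlhe40 by 2.06, Csrnp1 by 1.85, Maff by 1.61, Klf10 by 1.54, Myc by 1.17 and Mafk by 1.10 on the log2 scale. Klf5, Nfil3 and Cebpb rose by 1.08, 1.08 and 1.06. Ier2 had 27.7, 20.8 and 20.2 CPM untreated and 234, 304 and 256 CPM with PMA, so its groups lay far apart. Ier5 and Crem had the smallest called changes, 0.52 and 0.46. The call of Ier5 was lost without untreated library 3 (adjusted p = 0.0718) or PMA library 3 (0.0794), and that of Crem without untreated library 1 (0.0528), in the same edgeR test. Cebpd had 0.48 (adjusted p = 0.0528 by edgeR), Klf4 0.34, Klf6 0.22, Srf itself -0.06 and Klf2 -0.38, and none of these passed. Leaving out a library brought some past the threshold: Cebpd without PMA library 1 (adjusted p = 0.00614), Klf4 without PMA library 2 (0.049) and Klf2 without untreated library 1 (0.0306), the last as a decrease, in the same edgeR test. Over the 27 called factors, the fold between same-numbered libraries was highest in pair 2 for 18, in pair 1 for 2 and in pair 3 for 7. Over all genes called higher these numbers were 574, 597 and 262.

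**Figure D2:**
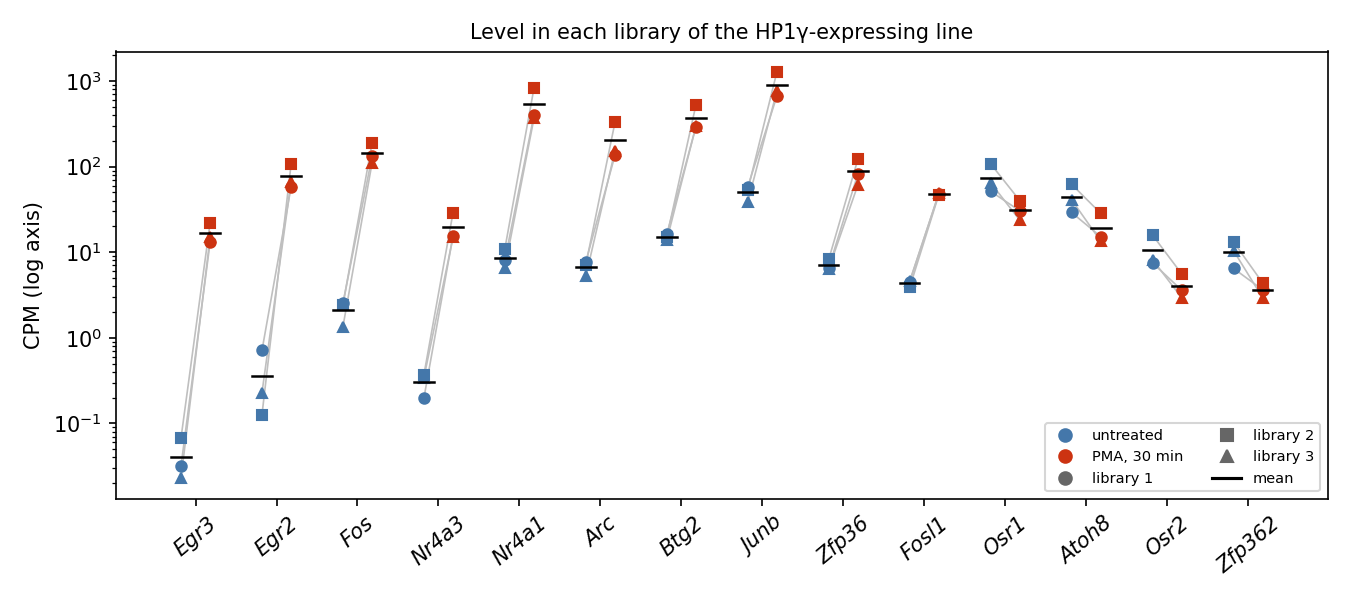
Each point is the level of a gene in 1 library in CPM on a log axis, blue for untreated and red for PMA, with the marker shape giving the library number, grey lines joining same-numbered libraries and black bars giving the mean of 3. The 10 genes at the left rose and the 4 at the right fell. All 14 come from the largest changes among genes without overlap of the 2 groups, so the lack of overlap was a condition of the choice. Egr3 runs from 0.0228 to 22.1 CPM.

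MAPK feedback genes were mostly called higher. Of 22 members of a list of MAPK feedback genes tested, 15 were called higher and 0 lower, with a median log2 fold change of 0.87, against 8.62% of all genes called higher. The libraries of the 15 did not overlap, which also held for 1228 of the 1433 genes called higher and for 22.7% of all genes. Errfi1, an inhibitor of the EGF receptor, had 21.7, 16.4 and 15.4 CPM untreated and 179, 238 and 188 CPM with PMA, a log2 fold change of 3.51 (SE 0.159, adjusted p = 8.06e-09 by edgeR). Ier3 rose by 2.78 on the log2 scale, from 25.6, 23.1 and 20.9 CPM to 139, 199 and 145 CPM, and Trib1, a pseudokinase, by 2.27. Among the dual-specificity phosphatases, which take phosphate off MAP kinases, Dusp6 rose by 1.64, Dusp5 by 1.63, Dusp1 by 1.13 and Dusp10 by 0.66. Dusp6 had 29.5, 18.9 and 21.8 CPM untreated and 68.0, 80.7 and 66.5 CPM with PMA. Dusp2 had 17, 0 and 17 counts untreated and 50, 224 and 131 with PMA, with a fitted log2 fold change of 3.25 that was 2.44 without untreated library 2, 3.89 without untreated library 1 and 3.85 without PMA library 1. Dusp4 and Dusp16 had smaller called changes of 0.92 and 0.41, and Dusp14 (-0.17) and Dusp8 (0.09) were not called.

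The Sprouty proteins, which restrain receptor tyrosine kinase signalling, did not move as a block: Spry2 rose by 1.64 and Spry4 by 1.54, while Spry1 had a log2 fold change of -0.54 and was not called. Spry2 had 19.6, 16.2 and 19.5 CPM untreated and 45.7, 70.1 and 57.3 CPM with PMA. Spry1 had 3.07, 13.6 and 3.27 CPM untreated and 2.73, 6.93 and 2.61 CPM with PMA, so both libraries numbered 2 stood apart from the rest, and without untreated library 1 it was called lower (adjusted p = 0.045 by edgeR). Nab2 and Nab1, corepressors that bind EGR proteins, rose by 1.56 and 0.81. Spred2 rose by 0.49, and Spred1 (0.21), Spred3 (0.17), Rcan1 (0.13) and Rgs2 (0.07) were not called. Leaving out untreated library 3 ended the calls of Dusp4 (adjusted p = 0.134), Dusp16 (0.073) and Spred2 (0.0894) in the same edgeR test. So did leaving out PMA library 3, with 0.0923, 0.0639 and 0.0565. PMA library 1 was needed by the same 3 genes as well (0.053, 0.0649 and 0.0601), untreated library 1 by Dusp4 (0.0588) and untreated library 2 by Dusp16 (0.0735).

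Factors that shorten the life of mRNAs or restrain proliferation were called higher in 9 of 11 (against 8.62% of all genes) and lower in 0, with a median log2 fold change of 1.02. Btg2, a partner of the CCR4-NOT deadenylase, had 16.3, 15.1 and 13.8 CPM untreated and 292, 525 and 296 CPM with PMA, a log2 fold change of 4.61 (SE 0.215, adjusted p = 2.06e-08 by edgeR). Zfp36 encodes tristetraprolin, which binds AU-rich elements and brings mRNAs to decay. It had 6.57, 8.23 and 6.40 CPM untreated and 82.2, 122 and 61.0 CPM with PMA, a log2 fold change of 3.61 (SE 0.166, adjusted p = 8.06e-09 by edgeR). Its relatives Zfp36l1 and Zfp36l2 rose by 1.39 and 1.35, Ifrd1 by 2.10 and Btg3 by 1.02. In all of the 9 called genes the untreated and PMA libraries did not overlap. Neither did those of 1228 of the 1433 genes called higher and of 22.7% of all genes.

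NF-kB is another pathway that PKC feeds. Of 34 members of a list of inflammatory and NF-kB genes, 32 were tested. Of these 21 were called higher and 0 lower, against 8.62% and 6.19% of all genes, with a median log2 fold change of 0.93. The libraries of all 21 did not overlap, which also held for 1228 of the 1433 genes called higher and for 22.7% of all genes. Nfkbiz, an atypical IκB protein, had 14.8, 12.9 and 17.5 CPM untreated and 95.1, 94.3 and 146 CPM with PMA, a log2 fold change of 2.88 (SE 0.121, adjusted p = 3.72e-09 by edgeR). Ptgs2, the inducible cyclooxygenase, had 21.7, 6.18 and 14.6 CPM untreated and 135, 48.6 and 98.7 CPM with PMA, a log2 fold change of 2.77 (SE 0.144). The libraries numbered 2 were the lowest of each group, and the fold was of like size in every pair. The chemokine genes Ccl20, Ccl7, Ccl2 and Cxcl10 rose by 3.36, 3.39, 3.06 and 2.65 on the log2 scale, and Ccl2 overlaps Gm17268 on the other strand. Without untreated library 1 the value of Cxcl10 was 3.26. Cxcl2 had 0 counts in every untreated library and 6, 43 and 40 counts with PMA, at least 25.8-fold higher against a floor of 3 counts over the untreated group. Cxcl1 had 6, 0 and 1 counts untreated and 19, 92 and 73 with PMA. The cytokine gene Lif rose by 2.47, while Il6, with 3, 0 and 5 counts untreated and 11, 3 and 23 with PMA, was not called.

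Of the inhibitors of NF-kB, Nfkbia, which encodes IκBα, rose by 1.51 and Tnfaip3, which encodes A20, by 1.26. The IκB family genes Nfkbib (0.42, adjusted p = 0.0547 by edgeR), Nfkbie (0.36) and Nfkbid (-0.01) were not called. Nfkbib was called higher without untreated library 1 (adjusted p = 0.0357) or PMA library 1 (0.026), and Nfkbie without PMA library 1 (0.0313), in the same edgeR test. Rel and Relb, subunits of the factor, rose by 1.113 and 0.79, and Traf1 by 1.83. In 13 of the 21 called genes the fold between same-numbered libraries was highest in pair 3, in 6 in pair 2 and in 2 in pair 1. The immediate-early factors had their highest folds in pair 2 instead, and this difference between the lists was not tested. The interferon-response factor gene Irf1 rose by 1.98 (75.3, 133 and 168 CPM with PMA against 31.9, 27.2 and 33.1 CPM untreated). In the list of 14 interferon genes tested it was the 1 called higher, with 1 called lower. Over all genes 8.62% were called higher and 6.19% lower.

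Of 10 genes of EGF receptor ligands and receptors tested, 3 were called higher, all ligands, against 8.62% of all genes. Hbegf had 9.80, 4.78 and 8.21 CPM untreated and 52.5, 57.2 and 58.8 CPM with PMA, a log2 fold change of 2.91 (SE 0.19, adjusted p = 5.73e-07 by edgeR). Ereg rose by 1.86, from 9.50, 13.3 and 8.58 CPM to 35.2, 42.8 and 33.9 CPM, and Areg by 3.37, from 0.363, 0.117 and 0.357 CPM to 3.26, 1.90 and 3.21 CPM. The receptor genes Egfr (-0.19), Erbb2 (-0.20) and Erbb3 (-0.30) were not called, nor were the ligand genes Tgfa (0.34), Nrg1 (0.43), Epgn (0.64) and Egf (-0.64). Without untreated library 1 Egf was called lower (adjusted p = 0.0428 by edgeR).

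Of 10 tested members of a list of inducible kinase genes, 8 were called higher and 0 lower, against 8.62% and 6.19% of all genes. Plk3 rose by 2.34 on the log2 scale (SE 0.119), from 12.6, 11.3 and 10.9 CPM to 66.5, 66.1 and 46.3 CPM. Sgk1 rose by 1.47, Map3k8, which encodes a kinase upstream of MEK, by 0.99 and Map3k14, which acts in the alternative NF-kB pathway, by 0.87. Arc, a cytoskeletal regulator first studied in neurons and a target of serum response factor, had 7.73, 7.14 and 5.21 CPM untreated and 135, 328 and 153 CPM with PMA, a log2 fold change of 4.90 (SE 0.299, adjusted p = 2.81e-06 by edgeR). Ccn1, a matricellular protein gene, rose by 2.06, from 138, 215 and 105 CPM to 566, 971 and 409 CPM. Arc and Ccn1 were 2 of 4 called higher among 22 targets of serum response factor and YAP. In that list 1 was called lower and the median was 0. Over all genes 8.62% were called higher and 6.19% lower. The cytoskeletal members Actb (-0.18), Vcl (0.11) and Acta2 (-0.17) were not called. Tcim, a regulator of proliferation, completes the 15 largest increases with 3.89, from 37, 0 and 8 counts to 350, 80 and 223, and with 5.26 without untreated library 1.

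**Figure D3:**
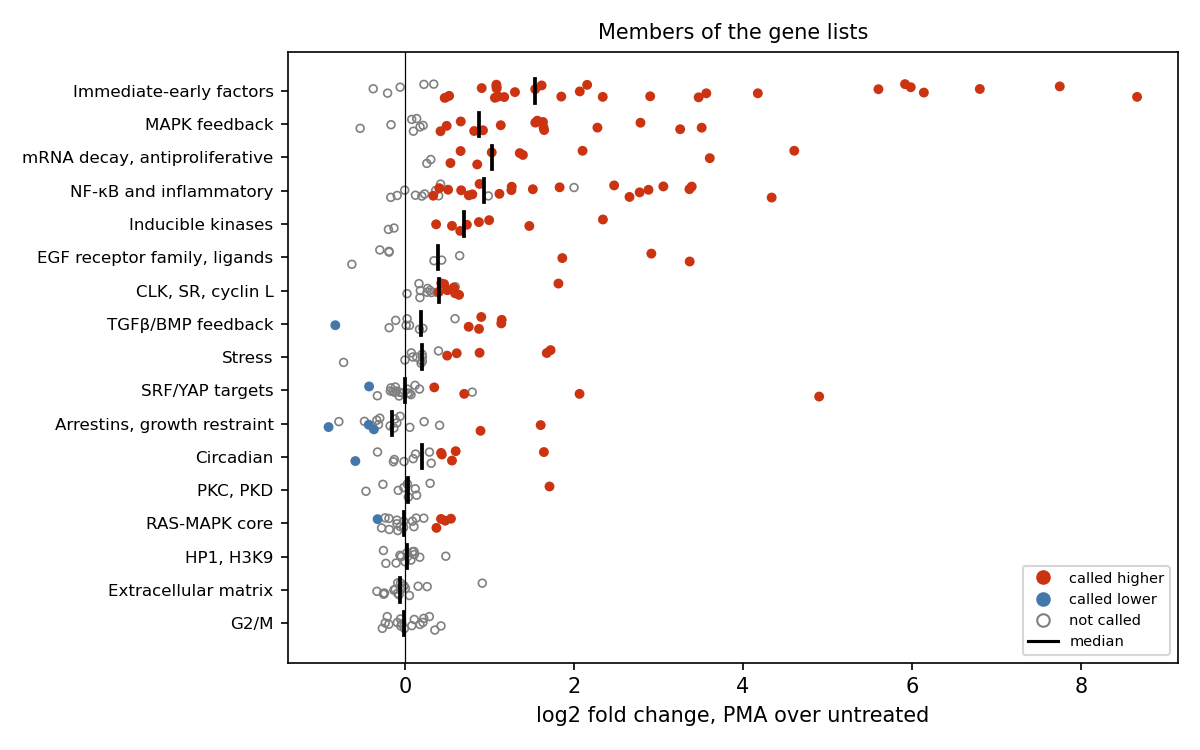
Each point is a tested member of a gene list, with its log2 fold change of PMA over untreated on the x axis, red where called higher, blue where called lower and open where not called, and black bars give the median of the list. Immediate-early factors (median 1.54), mRNA-decay factors (1.02), inflammatory genes (0.93) and MAPK feedback genes (0.87) lie to the right of 0. The HP1, extracellular matrix and G2/M lists lie around 0 with 0 members called, against 14.8% of all genes. Cxcl2, with 0 counts in all untreated libraries, is not drawn.

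The genes that carry the signal from PMA to the nucleus were measured too. Of 10 PKC and protein kinase D genes tested, 9 were not called, while 14.8% of all genes were called. Prkca, a classical PKC gene, had 0.29, and without PMA library 2 it was called higher at 0.43 (adjusted p = 0.0374 by edgeR). Of 19 RAS, RAF, MEK, ERK and RSK genes tested, 4 were called higher and 1 lower, against 8.62% and 6.19% of all genes, all by less than 1 log2 and with a median of -0.02. Rps6ka3 and Nras rose by 0.54 and 0.47, and Mapk3 (-0.19), which encodes an ERK kinase, was not called. No member of the HP1 and H3K9 methylation list was called, 0 of 14, against 14.8% of all genes. Cbx1, which encodes HP1β, was at 0.10 and Cbx3 within 0.01 of 0.

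Of 19 tested genes of a list of splicing regulators (CLK kinases, SR proteins, Tra2 proteins and cyclins L), 9 were called higher. This compares with 8.62% of all genes. The other 10 were not called, and the median was 0.40. All 19 fitted values were above 0, as were 8146 of the 16630 over all genes. Ccnl1, which encodes cyclin L1, had 49.3, 50.9 and 59.5 CPM untreated and 184, 187 and 188 CPM with PMA, a log2 fold change of 1.81 (SE 0.096, adjusted p = 2.75e-08 by edgeR). Ccnl2, Tra2b, Tra2a and Clk4 rose by 0.57, 0.57, 0.50 and 0.59. In the elongation list Ccnt1 and Ccnt2, the cyclins of P-TEFb, rose by 0.54 and 0.52. In that list 3 of 12 members were called higher, against 8.62% of all genes.

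Feedback genes of TGFβ and BMP signalling went both ways. Tgif1, Skil, Smad7 and Id1 rose by 1.14, 1.14, 0.87 and 0.90, and Smad6, an inhibitory SMAD of the BMP branch, fell by 0.83 on the log2 scale. Of 14 in the list 5 were called higher and 1 lower, against 8.62% and 6.19% of all genes. Stress genes were called higher in 5 of 15, against 8.62% of all genes, among them Ddit3, the CHOP factor of the integrated stress response, by 1.72 (96.3, 62.4 and 83.3 CPM untreated, 266, 269 and 250 CPM with PMA), Hmox1, haem oxygenase, by 1.67 and Dnajb1 by 0.88. Atf4 (0.20) and the heat shock gene Hspa1a (0.20) were not called. Per1, a clock gene that also responds acutely to signals, rose by 1.64, and 5 of 14 clock genes were called higher and 1 lower, against 8.62% and 6.19% of all genes. In a list of 12 p53 target and GADD45 genes 2 were called higher and 1 lower, against 8.62% and 6.19% of all genes. The median was 0.05. Cdkn1a and Mdm2 rose by 1.5 and 0.72, and Gadd45b fell by 0.48 on the log2 scale. The call of Gadd45b was lost without untreated library 2 (adjusted p = 0.0684 by edgeR).

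Genes known to follow phorbol esters in fibroblasts over hours were also listed. Of 14 such delayed genes tested 4 were called higher, against 8.62% of all genes. Plau and Plaur, the urokinase and its receptor, rose by 0.74 and 0.71. Odc1, a classical phorbol ester target, had 0.20 and was not called. Extracellular matrix genes (0 of 18), G2/M genes (0 of 17), ribosomal protein genes (0 of 77) and mitochondrially encoded genes (0 of 22) had no member called, against 14.8% of all genes, and G1/S genes had 2 of 16.

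Arrestin-domain and growth-restraint genes were split, with 2 called higher and 3 lower of 18, against 8.62% and 6.19% of all genes. Arrdc3 rose by 1.60 on the log2 scale, from 36.8, 36.0 and 38.2 CPM to 109, 112 and 116 CPM, and Klf9 by 0.89. Txnip, an inhibitor of thioredoxin and of glucose uptake, fell by 0.91, from 194, 282 and 189 CPM to 82.1, 209 and 82.5 CPM, with PMA library 2 inside the range of the untreated ones. The call of Txnip was lost without untreated library 3, PMA library 1 or PMA library 3 (adjusted p = 0.0678, 0.079 and 0.076 by edgeR).

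The 15 largest decreases under that filter ranged from -1.19 to -1.73 on the log2 scale. Osr1, an odd-skipped factor of embryonic mesenchyme, had 51.4, 108 and 64.7 CPM untreated and 30.4, 40.1 and 23.6 CPM with PMA, a log2 fold change of -1.22 (SE 0.139, adjusted p = 6.78e-05 by edgeR). Its relative Osr2 had 7.49, 15.8 and 8.17 CPM untreated and 3.60, 5.57 and 2.93 CPM with PMA, a log2 fold change of -1.36. Atoh8, a basic helix-loop-helix factor, had 29.1, 62.1 and 41.0 CPM untreated and 15.2, 28.3 and 13.4 CPM with PMA, a log2 fold change of -1.25 (SE 0.163, adjusted p = 0.000227 by edgeR). The zinc-finger gene Zfp362 fell by 1.44 on the log2 scale, from 6.46, 13.2 and 10.4 CPM to 3.63, 4.37 and 2.92 CPM. In each of these 4 genes untreated library 2 was the highest library. That the groups do not overlap was a condition of the choice. Without untreated library 2 the log2 fold changes were -1.12, -1.09, -1.24 and -1.32, and all 4 stayed past the threshold.

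Other members of the 15 were Npcd (-1.73), which overlaps Cbx6 and Nptxr, Lmtk3 (-1.38), the zinc-finger genes Zfp108 (-1.31), Zfp273 (-1.29) and Zfp493 (-1.19), Rasl11b (-1.29), Tspan32 (-1.23), Tha1 (-1.21), the antisense RNA Nr6a1os (-1.30), Ppp1r3c (-1.22) and Dnaic1 (-1.27). Dnaic1 was the weakest of them, with an adjusted p of 0.0469 by edgeR and of 0.115 to 0.24 when any 1 of the 5 libraries other than untreated library 1 was left out. Leaving out single libraries also ended the call of Zfp493 (untreated libraries 1, 2 and 3 and PMA libraries 2 and 3, adjusted p = 0.063 to 0.161), that of Ppp1r3c (untreated libraries 2 and 3 and PMA libraries 1 and 3, 0.0532 to 0.106) and that of Nr6a1os (untreated library 3 and PMA library 3, 0.0582 and 0.0647), in the same edgeR test. Genes whose symbol begins with Zfp, a family chosen after its values were seen, were called lower in 51 of 344 (14.8%, against 6.19% of all genes) and higher in 21, with a median of -0.08.

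The primary transcripts of 2 microRNAs with a shared seed rose. MicroRNAs guide Argonaute to mRNAs through bases 2 to 8 of the mature strand, the seed. Of 82 microRNA genes tested, 4 were called higher and 1 lower, against 8.62% and 6.19% of all genes. Mir221 and Mir222, which lie next to each other on the X chromosome, led by p. Their mature strands are shown for the seed, which is in capitals, from RefSeq on GRCm38.p6 (chrX:19146307-19146329 and chrX:19146901-19146923, minus strand).
miR-221-3p: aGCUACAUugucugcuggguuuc
miR-222-3p: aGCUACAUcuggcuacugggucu
Both carry the seed GCUACAU. Mir221 had 2.01, 0.461 and 1.57 CPM untreated and 5.13, 8.71 and 11 CPM with PMA, a log2 fold change of 2.72 (SE 0.485, adjusted p = 0.00537 by edgeR). Mir222 had 0.292, 0.419 and 0.235 CPM untreated and 0.925, 2.26 and 2.79 CPM with PMA, a log2 fold change of 2.5 (SE 0.351, adjusted p = 0.000369 by edgeR). The groups do not overlap in either gene, and in both PMA library 3 was the highest. Libraries of total RNA of this kind read the precursor, so these are not levels of the mature strands. Gm14636, a noncoding gene beside them on the same strand that was chosen after its values were seen, had 20.5, 17.4 and 22.2 CPM untreated and 136, 238 and 247 CPM with PMA, a log2 fold change of 3.31 (SE 0.198). The others called were Gm22123 (0.75) and Mir129-2 (5 counts in all untreated against 55 with PMA), both higher, and Mir130a, which fell from 9, 15 and 16 counts to 1, 3 and 0. These 3 calls were weak: that of Gm22123 was lost without untreated library 2 or 3 (adjusted p = 0.0635 and 0.0565), that of Mir130a without any of untreated libraries 2 and 3 and PMA libraries 1 and 3 (0.0971 to 0.136), and that of Mir129-2 without any library but PMA library 1 (0.066 to 0.107), in the same edgeR test.

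Genes with large increases were short. Among protein-coding genes the median span was 25.0 kb over all tested, 30.8 kb in those called higher, 15.1 kb in those higher by at least 1 log2 and 8.75 kb in those higher by at least 2 log2, with median exon numbers of 8, 9, 5 and 4. Genes called lower had a median of 21.7 kb, and 13.3 kb by at least 1 log2. Among genes below 5 kb 3.14% were called higher by at least 1 log2, against 0.64% of those from 50 to 100 kb, although 13.4% of the latter were called higher at any size. Above 200 kb 2.40% were called higher and 1.13% lower. Long noncoding RNAs made up 7.71% of annotated genes tested, 12.6% of those higher by at least 1 log2 and 46.9% of those lower by at least 1 log2 (60 of 128), where 22.7% were antisense RNAs. The median level of long noncoding RNAs was 0.389 CPM against 23.9 CPM for protein-coding genes, not scaled for length. Median GC content of protein-coding transcripts was 49.9% in all, 45.0% in those called higher and 54.8% in those called lower. A correction for GC content and length left 1376 genes called higher and 842 lower. These features are described with no test.

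**Figure D4:**
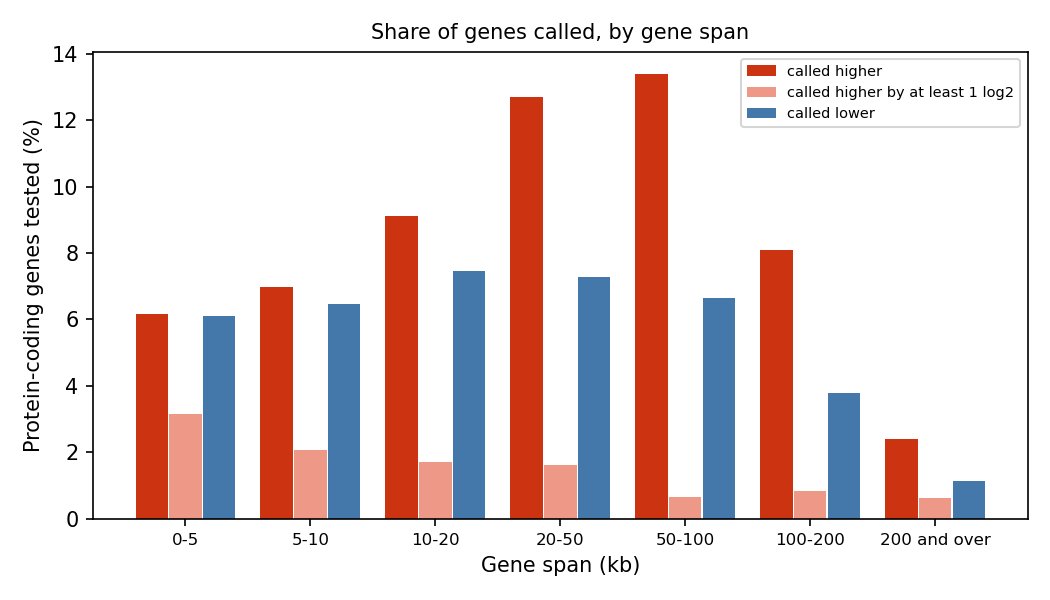
Bars give the share of protein-coding genes tested, in percent, that were called higher, called higher by at least 1 log2 or called lower, by the span of the gene in kb on the x axis. The share called higher by at least 1 log2 falls from 3.14% below 5 kb to 0.64% at 50 to 100 kb, while the share called higher at any size peaks at 13.4% in that bin.

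The PMA response of the knockout-labelled line gives the comparison for what differs in the HPg line. In its own PMA comparison 2221 genes were called (13.4%), 1130 higher (6.79%) and 1091 lower (6.56%). Of the HPg calls 783 higher genes (54.6%, and 69.3% of the calls in the other line) and 458 lower genes (44.5%, and 42.0%) were called in the same direction there, and 0 of the 1241 genes called in both lines went opposite ways. Of the 280 genes higher by at least 1 log2 in HPg cells 225 were called higher in the other line, and of the 149 lower by at least 1 log2, 90 were called lower. The difference between the lines itself, tested as the interaction of line and PMA with edgeR, was called for 0 of 16630 genes (0.0%), with 1275 at an unadjusted p below 0.05 (7.67%) and 1 called by DESeq2.

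Fosl1 came nearest to a difference. With PMA it had 48.2, 47.1 and 48.7 CPM in HPg cells and 75.8, 77.3 and 70.3 CPM in the knockout-labelled line, and untreated 4.52, 3.88 and 4.58 against 3.48, 3.35 and 3.48 CPM. Its log2 fold change by PMA was 3.47 in HPg and 4.44 in the other line, a difference of -0.97 (SE 0.129) with an adjusted p of 0.0541 by edgeR. With DESeq2 the adjusted p was 2.33e-06, and without HPg untreated library 2 it was 0.0413 by edgeR. Myc (-0.62), Plk3 (-0.67) and Trib1 (-0.85) also had smaller increases in HPg cells, at an adjusted p of 0.629 by edgeR, which is no call. At the same adjusted p by edgeR, the fitted difference was above 0 for Ube2v2 (0.96), Cenpp (0.68), Pibf1 (0.79) and Fgf10 (0.64). Ube2v2 had a log2 fold change by PMA of 1.01 in HPg and 0.055 in the other line. The fitted difference was below 0 for 29 of 33 immediate-early factors, with a median of -0.38, and for 18 of 22 MAPK feedback genes, with a median of -0.36, against 8545 of 16630 genes and a median of -0.01. It was also below 0 for 65 of 77 ribosomal protein genes and for 18 of 22 targets of serum response factor and YAP. The median PMA effect in HPg was 0.15 and 0 in those lists. Of the splicing regulators 7 of 19 were below 0, and of the HP1 list 5 of 14. This pattern over lists was not tested. Members of a list share libraries and are not independent, and 0 of them passed the test of the difference on its own. Each genotype is 1 line, so line and genotype cannot be told apart.

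**Figure D5:**
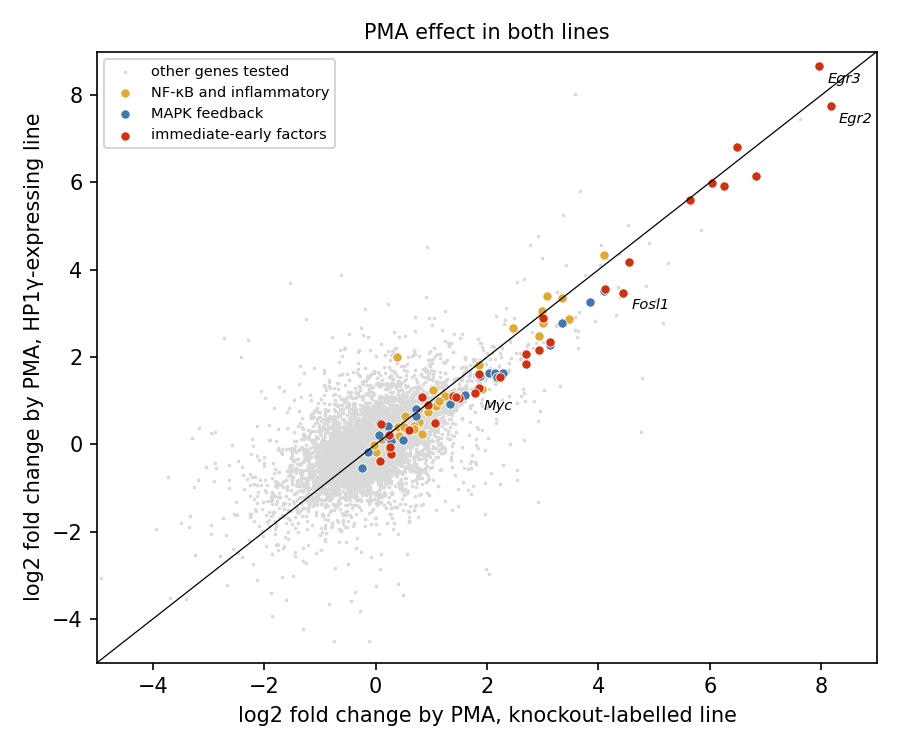
Each point is a gene, with its log2 fold change by PMA in the knockout-labelled line on the x axis and in the HPg line on the y axis, and the black line marks equal values. Immediate-early factors in red, MAPK feedback genes in blue and inflammatory genes in yellow lie along the line, with 29 of the 33 red points below it. Fosl1 lies at 4.44 and 3.47, and Cxcl2 is not drawn.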

How the data were processed

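Directional libraries of total RNA, depleted of ribosomal RNA, were read as paired ends, per the labels' protocols. The authors deposited 1 table of raw counts per gene that were not normalized, as its whole numbers show. Per the submitters' processing notes the build was mm9 and the tools were Subread with featureCounts 1.4.6-p3, STAR 2.5.0a and cutadapt 1.11. Whether counting used strand, took reads or read pairs, and which annotation release it used are not given in the sources here, so values of genes with an overlapping or antisense partner, and of near-identical copies, are uncertain. Of 37310 genes, 32620 took a symbol from GENCODE M21, which also gave spans, exons, biotypes, GC content and overlaps on GRCm38, and 25029 had a count.

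filterByExpr (minimum count 10, minimum total 15) left 16630 genes. A quasi-likelihood F-test in edgeR 4.0.16 (R 4.3.3, robust, TMM factors) was fitted to all 12 libraries with a coefficient per group and the replicate number as a block, for 3 contrasts: PMA in each line and the difference of the 2. P-values were Benjamini-Hochberg adjusted over all genes, and genes below 0.05 are called. The script was tested on simulated data. With 3 libraries a group, an exact permutation test of 1 gene could reach 0.1 at best. The replicate numbers in the labels pair the libraries: over genes, deviations from group means had correlations of 0.334 to 0.815 in the 18 same-numbered pairs and of -0.746 to 0.343 in the 36 others. What a number shares is not stated. Any 2 libraries of the same group differed beyond sampling noise (chi-square per degree of freedom 104.1 to 689.2). Each was counted as 1 replicate per the submitters' description of biological triplicates, which this value alone cannot establish. The fold between same-numbered libraries used a pseudocount of 0.1 CPM.

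The members and lists were chosen with earlier results of these data known, so no list count is independent support. Named genes are the 15 largest increases and 15 largest decreases called, among genes that average 1 CPM or more in the higher group, whose groups do not overlap and whose symbol is no predicted-gene name, all tested immediate-early factors and MAPK feedback genes, and members of other lists in order of unadjusted p, up to 4, with further members named for their role. Genes named for the difference between the lines in the fit reported are those with the smallest unadjusted p for it. Alternatives were other scalings, filters, DESeq2 1.42.0, GC content and length correction (mgcv 1.9.3), a minimum fold of 1.2 and left-out libraries. Columns of the table not used numbered 0. Some list members are not reported here.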

Additional observations from a re-analysis of the deposited data

How the results depend on the processing

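The count of genes called, 2462 (1433 higher, 1029 lower), depended on the model. Without the replicate block it was 574 (421 and 153), with only the 6 HPg libraries in the fit 1042 (765 and 277), against a minimum fold of 1.2 it was 762 (548 and 214), and without all 4 libraries numbered 2 it was 1611, with 510 lower. Upper-quartile scaling gave 1732 lower genes. Leaving out 1 HPg library at a time gave 1064 to 2660 called, 798 to 1493 higher and 266 to 1167 lower, with the lowest counts without untreated libraries 2 or 3 and PMA library 3. The fits with fewer libraries have fewer residual degrees of freedom. The cause of the other shifts was not tested.

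Genes named only for their marker level or for the difference between the lines are not counted here. Of 121 named genes that were called, 90 kept the call in each of the alternatives that gave a value. Without any 1 HPg library 106 kept it, and none changed direction in any of the 19 alternatives. DESeq2 lost 0 of these calls, library totals alone 3, the fit to 6 libraries 13 and the fit without the block 26. Those 26 include Atoh8 (adjusted p = 0.101), Tcim (0.0622), Sgk1 (0.0615), Spry4 (0.0933), Dusp10 (0.112), Smad6 (0.228), Id1 (0.11), Plau (0.104), Klf9 (0.0878), Gadd45b (0.133), Tra2a (0.107), Ccnt2 (0.0566), Nras (0.0967) and Rps6ka3 (0.177), by edgeR. Of 34 named genes not called, some gained a call: 6 with the GC content and length correction (Cebpd, Klf4, Egfr, Atf4, Nfkbib and Nfkbie), 3 with DESeq2 (Cebpd, Klf4 and Nfkbib), 2 without a filter (Cebpd and Klf4), 1 with DESeq2's size factors (Cebpd), 1 with a filter of 1 CPM (Nfkbib) and 1 without the libraries numbered 2 (Klf4). Others changed sign. Cbx3 was at 0.000338 with DESeq2, 0.000342 with DESeq2's size factors, 0.00221 without a filter, 0.0645 without the libraries numbered 2 and between -0.0902 and 0.066 without 1 library. With the GC content and length correction in the replicate block fit Jund was at 0.0178, Srf at 0.176, Nfkbid at 0.112 and Rgs2 at -0.041. Nfkbid was at 0.0349 without the replicate block. Rgs2 was at -0.000847 with upper-quartile factors and -0.117 without the libraries numbered 2. Without 1 library Rgs2 lay between -0.269 and 0.243, Srf between -0.143 and 0.0182, Dusp8 between -0.114 and 0.256, Nfkbid between -0.186 and 0.268, Epgn between -0.0279 and 1.36 and Spred3 between -0.000804 and 0.306.

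The difference between the lines was called for 0 genes in the fit reported and for 1 gene, Fosl1, with DESeq2, upper-quartile factors (adjusted p = 0.039 by edgeR), a filter of 1 CPM (0.0485) or no filter (0.00299). Leaving out 1 library gave 0 to 1, Fosl1 without HPg untreated library 2 and Gm6565 without knockout-labelled untreated library 1.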
